A study of Mus musculus with 10 samples.

Results

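Potassium channels let potassium ions leave or enter cells down their electrochemical gradient and so set the resting potential, end action potentials and carry the potassium that active neurons release. The genes described here are 87 mouse genes whose symbols begin with Kcn followed by a letter from a to v, the pore-forming subunits and their auxiliary subunits, without Kcnj8, Kcnj10, Kcnj13 and Kcnj16. They were chosen by symbol alone, from 22180 genes that had a probe set paired with exactly 1 symbol. Where a gene had more than 1 probe set, as 7 of the 87 did, the brightest was used. Of the 87, 80 lay above the background level used here and were tested. That level is the 25th percentile of all 33793 probe sets, a log2 signal of 5.32. It is a rank on these arrays and not a detection test.

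RNA was measured on 10 Affymetrix arrays of cells sorted by FACS from mouse cortex at 8 weeks of age for an EGFP reporter expressed on astrocytes. The control group is 5 arrays labelled wild-type, and the other group is 5 arrays labelled Fmr1 KO, called KO-labelled below. The labels give both groups the same reporter and sort, and the promoter that drives EGFP, and which part of Fmr1 was disrupted, are not stated in the labels. The series names 1 comparison, control against Fmr1 KO, and each difference below is KO-labelled minus control, between means of log2 signal, with 5 arrays in each group. Fmr1 encodes FMRP, an RNA-binding protein whose loss causes fragile X syndrome and which is also known to bind some potassium channel proteins directly. In astrocytes, potassium channels hold the membrane close to the potassium equilibrium potential and let extracellular potassium be taken up and spread through the glial network. In microglia, another set of the same family sets the resting potential and takes part in surveillance and cytokine release.

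Fmr1 signal did not separate the groups. Its log2 signal ran from 7.60 to 8.28 on the control arrays (8.04 ± 0.26, SD, n = 5) and from 8.01 to 8.38 on the KO-labelled arrays (8.22 ± 0.15, SD, n = 5), so the labels were not borne out by this probe set and every direction below rests on them. Xist, the RNA of the inactive X chromosome, had signals of 10.60 and 10.98 on control arrays 2 and 3, against 4.98 to 5.23 elsewhere. High Xist thus occurred in 2 of 5 control and 0 of 5 KO-labelled arrays, so sex, which the labels do not give, may be unbalanced between the groups. All 15 astrocyte markers lay above background, with means per array from 9.52 to 10.2 in controls and from 9.71 to 10.7 in KO-labelled arrays. All 14 microglia markers that were measured also lay above background. Their means were 9.94, 10.75, 10.92, 10.86 and 10.84 on control arrays 1 to 5 and 9.75, 9.20, 10.58, 10.60 and 10.31 on KO-labelled arrays 1 to 5. The 6 measured markers of choroid plexus and ependyma averaged 8.52 to 9.33 in controls and 8.15 to 9.26 in KO-labelled arrays. Neuron markers were low at 5.81 to 6.04 and 5.78 to 5.94, with Slc17a6, Nefl and Nefm below background. Endothelial markers averaged 6.36 to 6.78 in controls and 6.30 to 6.36 in KO-labelled arrays, where control array 3 alone fell among the KO-labelled values. Among them Ly6c1 lay below background. Markers of mural cells averaged 7.06 to 7.69 and 7.35 to 7.71, all 8 above background. Those of oligodendrocyte precursors averaged 6.57 to 6.82 and 6.61 to 6.99. Those of oligodendrocytes averaged 6.14 to 6.40 and 6.20 to 6.49, with Opalin and Ermn below background. The part of these other cell types in the results was not tested. In such bulk samples, fewer cells of a type and less RNA per cell cannot be told apart.

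Most of the potassium channel genes read at modest signal. Above the background level were 80 of 87 (91.95%), against 79.9% of all 22180 genes, but only 40 of 87 (46.0%) lay above the median of all probe sets at 6.17, against 55.6% of all genes. A mean of 8 or more was reached by 8 genes, of 7 or more by 17 and of 6 or more by 45. Signals of different probe sets give no order of transcript abundance, so these counts place each gene only within the range of the arrays. On all 10 arrays, 74 genes were above background. The same number, 80, was above it by the control mean and by the KO-labelled mean.

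**Figure D1:**
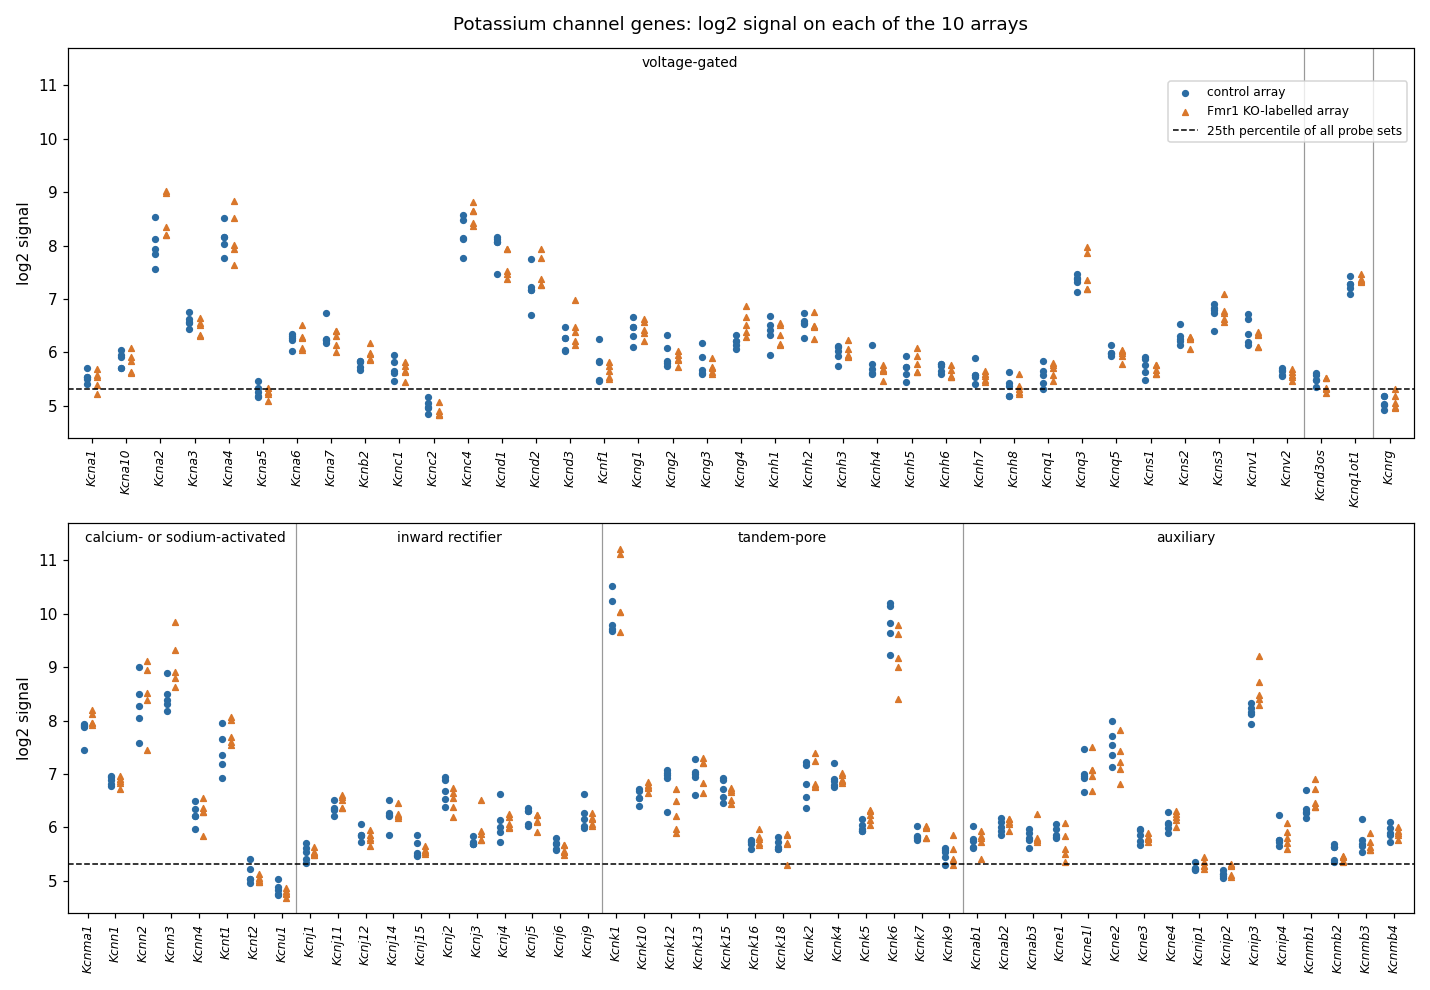
Log2 signal (vertical axis) of each of the 87 potassium channel genes on each of the 10 arrays, grouped by role; circles are control arrays, triangles are KO-labelled arrays, and the dashed line is the background level of 5.32. Kcnk1 and Kcnk6 stand at the top of the range, and 7 genes have means below the line.

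The 7 genes below background were Kcnu1 at 4.81, Kcnc2 at 4.95, Kcnrg at 5.08, Kcnt2 at 5.08, Kcnip2 at 5.16, Kcna5 at 5.26 and Kcnip1 at 5.28, as means of log2 signal over the 10 arrays. Kcnu1 encodes the sperm channel of the large-conductance family, Kcnc2 a channel of fast-spiking neurons, and Kcnrg a protein that hinders channel assembly. Kcnip1 is the gene just under the level, and Kcnh8, at 5.36, is the gene just above it.

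No potassium channel gene passed the test between groups after adjustment over all 17712 genes tested (limma, Benjamini-Hochberg adjusted p under 0.05), and none of the 17712 genes did (0%). The smallest adjusted p was 0.654 for both the 80 genes and all genes. At an unadjusted p under 0.05, 7 of the 80 (8.75%) read higher in KO-labelled arrays, where 4% of all genes (709) did, and 2 of the 80 (2.5%) read lower, where 3.53% of all genes (625) did. In 1 of the 80 (1.25%), Kcnb2, every KO-labelled array lay above every control array, against 0.429% of all genes, and in 0 of the 80 did every KO-labelled array lie below every control array, against 0.536% of all genes. Means were higher in KO-labelled arrays for 41 genes and lower for 39, with a median difference of 0.01, and 8282 of all genes were higher and 9430 lower, with a median of -0.01.

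**Figure D2:**
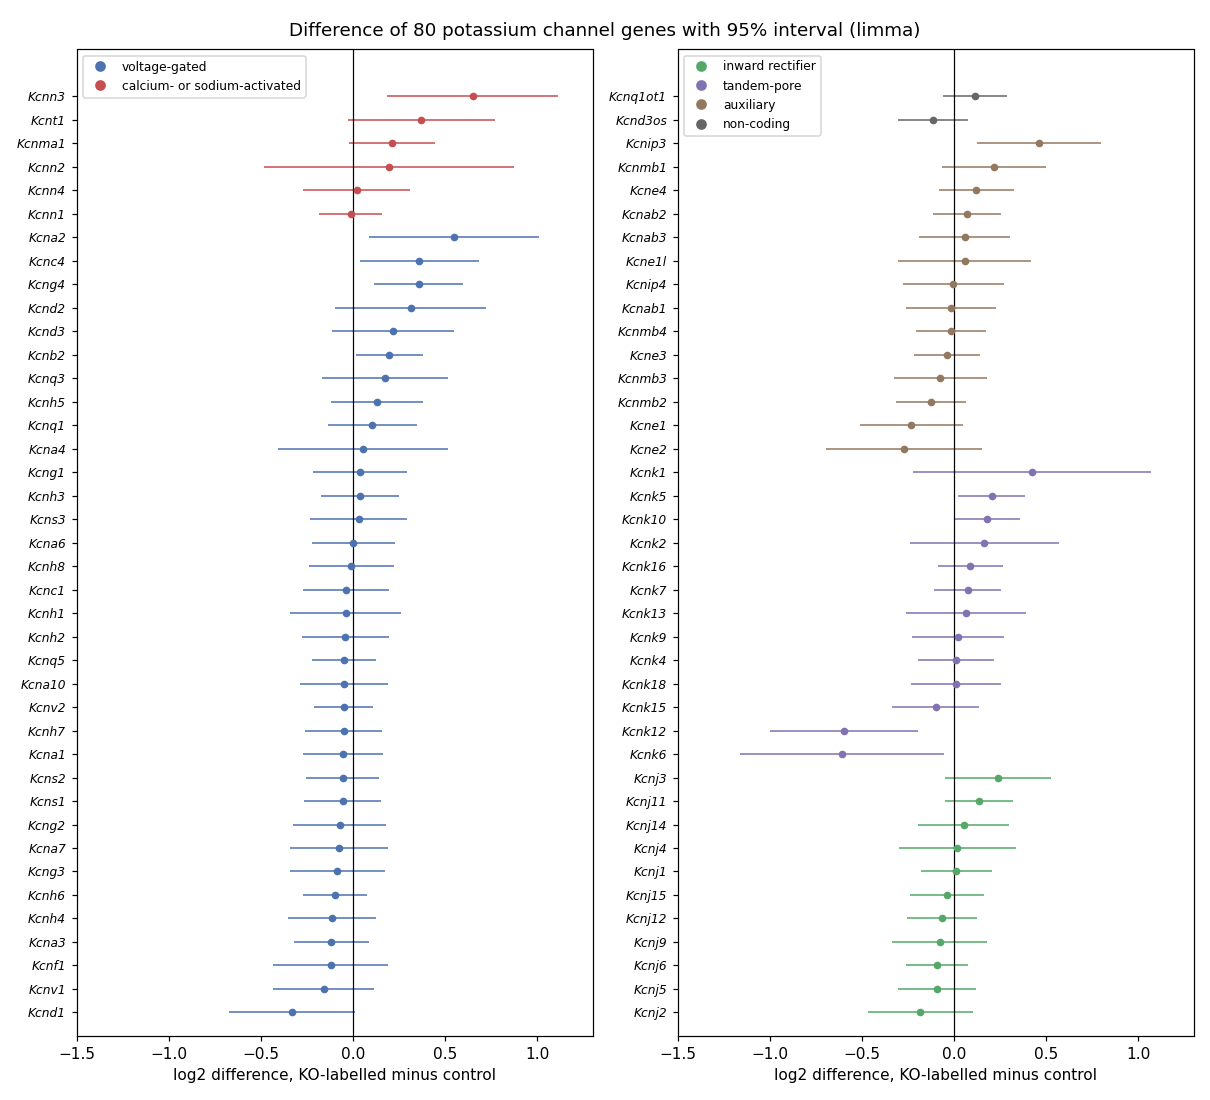
Difference in log2 signal, KO-labelled minus control (horizontal axis), for each of the 80 tested genes; points are limma estimates from 5 arrays per group, lines are 95% intervals and colours give the role. The intervals of 9 genes exclude 0, with Kcnn3 highest at 0.65 and Kcnk6 lowest at -0.61, and none of the 9 passed after adjustment.

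Promoter sequences are shown for the genes with the largest differences in each direction among those with an entry, so that the upstream sequence can be read beside their values. They are RefSeq sequences of assembly GRCm38.p6, the 250 bases before the first-listed transcription start, in the direction of transcription. Kcnn3 (chr3:89519914-89520163, plus strand) and Kcna2 (chr3:107101317-107101566, plus strand) had the largest higher values. Kcnk12 (chr17:87797995-87798244, minus strand) and Kcne2 (chr16:92292139-92292388, plus strand) had the largest lower differences of those with an entry, at -0.60 and -0.27. Kcnk6, at -0.61, and Kcnd1, at -0.33, had larger lower differences than Kcne2 and are not shown. The limma unadjusted p of Kcne2 was 0.186. Kcne2 has 2 starts listed. Capitals mark matches to the motifs searched on both strands.
Kcnn3: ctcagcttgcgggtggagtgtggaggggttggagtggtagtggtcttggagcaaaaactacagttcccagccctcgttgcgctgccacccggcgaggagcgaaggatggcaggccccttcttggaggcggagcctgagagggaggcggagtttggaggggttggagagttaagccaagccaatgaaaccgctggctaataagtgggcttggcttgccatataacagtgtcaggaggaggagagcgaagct
Kcna2: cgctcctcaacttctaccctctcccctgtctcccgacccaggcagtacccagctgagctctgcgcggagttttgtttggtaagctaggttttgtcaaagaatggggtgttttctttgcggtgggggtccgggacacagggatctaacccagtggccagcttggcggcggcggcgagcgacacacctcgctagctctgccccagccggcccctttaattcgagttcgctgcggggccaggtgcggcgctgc
Kcnk12: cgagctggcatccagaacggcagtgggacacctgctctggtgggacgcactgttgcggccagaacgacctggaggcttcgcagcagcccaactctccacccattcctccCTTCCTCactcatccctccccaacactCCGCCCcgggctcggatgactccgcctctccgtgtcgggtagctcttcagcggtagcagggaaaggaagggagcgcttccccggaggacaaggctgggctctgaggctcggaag
Kcne2: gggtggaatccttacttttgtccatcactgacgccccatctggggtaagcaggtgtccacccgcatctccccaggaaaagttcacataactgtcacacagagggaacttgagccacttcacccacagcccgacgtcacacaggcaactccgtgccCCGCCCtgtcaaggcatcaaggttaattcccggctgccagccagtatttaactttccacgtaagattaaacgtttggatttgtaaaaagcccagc
The motifs were the GC box GGGCGG, the TATA box TATAAA, the PU.1 core GAGGAAG, the E-box CACGTG and the cyclic AMP response element TGACGTCA. No 2 of these matches overlapped in the printed windows. The Kcnk12 window held 1 GC box and 1 PU.1 core, that of Kcne2 held 1 GC box, and those of Kcnn3 and Kcna2 held none of the 5. Over the 67 potassium channel genes with an entry, 49.3% of windows held the GC box, against 32.9% of all 27025 promoters, and 1.49% held the TATA box, against 13%. The PU.1 core was in 13.4% of their windows and 10.4% of all, the E-box in 5.97% and 6.05%, and the response element in 0% and 1.62%. Median GC content was 58.8% in their windows and 52% in all. A match describes these letters and is not a site of binding.

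Voltage-gated channels open when the membrane is depolarised and shape spikes and repolarisation in neurons. Of 36 such genes, 34 lay above background. Their mean was higher in KO-labelled arrays for 14 and lower for 20, with a median difference of -0.04. Of the 34, 4 (11.8%) read higher at an unadjusted p under 0.05, against 4% of all genes, and 0 lower, against 3.53%. By subfamily, 7 of 8 Kcna, the 1 Kcnb, 2 of 3 Kcnc, 3 of 3 Kcnd, 8 of 8 Kcnh and 3 of 3 Kcnq genes were above background, as were all 10 genes for modifier subunits, which form no channel alone (Kcnf1, 4 Kcng, 3 Kcns and 2 Kcnv genes).

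Kcna2 encodes a Shaker-family delayed rectifier best known from axons. Kcna2 read 8.54, 7.84, 7.93, 8.12 and 7.57 on control arrays 1 to 5 and 9.02, 8.98, 8.20, 8.20 and 8.35 on KO-labelled arrays 1 to 5. The high values were those of KO-labelled arrays 1 and 2 and control array 1, and the groups overlapped. The means were 8.00 ± 0.36 and 8.55 ± 0.42 (SD, n = 5 each), a difference of 0.55 ± 0.21 (SE; 95% interval 0.09 to 1.01) or 1.46-fold, which did not pass (limma, unadjusted p = 0.0240, adjusted p = 0.654). Of the other Kcna genes, Kcna4, an A-type channel, read 8.13 ± 0.27 and 8.18 ± 0.48, and its second probe set lay below background. Kcna3, a channel of T cells and activated microglia, read 6.59 ± 0.12 in controls and 6.47 ± 0.15 in KO-labelled arrays, a difference of -0.12 ± 0.09 (SE; limma adjusted p = 0.746).

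Kcnc4, a fast high-threshold channel of the Shaw family, read 8.58, 7.77, 8.48, 8.14 and 8.13 on control arrays 1 to 5 and 8.64, 8.81, 8.64, 8.43 and 8.36 on KO-labelled arrays 1 to 5. Control arrays 1 and 3 lay among the KO-labelled values and control array 2 below all others. The means differed by 0.36 ± 0.15 (SE; 95% interval 0.04 to 0.68; 1.28-fold; limma, unadjusted p = 0.0322, adjusted p = 0.654), and by 0.25 without control array 2. Kcng4, a modifier subunit that joins Kcnb channels, read 6.05, 6.22, 6.33, 6.13 and 6.21 in controls and 6.87, 6.66, 6.38, 6.30 and 6.51 in KO-labelled arrays. Only KO-labelled array 4 fell within the control range. The difference was 0.36 ± 0.11 (SE; 95% interval 0.11 to 0.60; limma, unadjusted p = 0.00791, adjusted p = 0.654).

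Kcnb2, a Shab-family delayed rectifier with which such modifiers assemble, was the gene whose groups did not overlap. Kcnb2 read 5.82, 5.84, 5.84, 5.73 and 5.66 on control arrays 1 to 5 and 6.17, 5.86, 5.87, 5.98 and 5.99 on KO-labelled arrays 1 to 5. KO-labelled arrays 2 and 3 cleared the highest control by less than the SD of either group. The difference was 0.20 ± 0.08 (SE; 95% interval 0.01 to 0.38; 1.15-fold; limma, unadjusted p = 0.0369, adjusted p = 0.654), at a signal near background.

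The Kcnd genes encode A-type channels that KChIP proteins, the products of the Kcnip genes, and DPP proteins accompany. Kcnd1 read 7.46, 8.13, 8.07, 8.07 and 8.16 in controls and 7.47, 7.38, 7.93, 7.93 and 7.53 in KO-labelled arrays. Control array 1 stood with the low KO-labelled arrays, apart from the other 4 controls. The difference was -0.33 ± 0.16 (SE; limma, unadjusted p = 0.0558, adjusted p = 0.655). Kcnd3 read 0.22 ± 0.15 (SE) higher. Among the remaining genes brightest in their subfamily, the M-current subunit Kcnq3 differed by 0.17 ± 0.16, the modifiers Kcnf1 by -0.12 ± 0.14, Kcns3 by 0.03 ± 0.12 and Kcnv1 by -0.16 ± 0.13, and the ERG channel Kcnh2 by -0.04 ± 0.11 (SE for each). Kcnq3 was high at 7.97 and 7.85 on KO-labelled arrays 1 and 2, with 7.13 to 7.46 on the remaining 8 arrays. The other voltage-gated genes above background, Kcna1, Kcna6, Kcna7, Kcna10, Kcng1, Kcng2, Kcng3, Kcnh1, Kcnh3, Kcnh4, Kcnh5, Kcnh6, Kcnh7, Kcnh8, Kcnq1, Kcnq5, Kcns1, Kcns2 and Kcnv2, differed by -0.11 to 0.13.

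Channels activated by intracellular calcium or sodium couple ion entry to hyperpolarisation. Of 8 genes grouped here by family, Kcnu1 among them, 6 lay above background, all 4 Kcnn genes, Kcnma1 and Kcnt1. The mean was higher in KO-labelled arrays for 5 and lower for 1, with a median difference of 0.20. Of the 6, 1 (16.7%) read higher at an unadjusted p under 0.05, against 4% of all genes, and 0 lower, against 3.53%. The median rested on 6 genes. It was 0.10 when control array 2 or KO-labelled array 1 was left out, 0.31 when control array 1 was and 0.33 when KO-labelled array 5 was. With the microglia marker mean as covariate it was 0.12, and 0.06 with that covariate and without control arrays 2 and 3. Without the filter on dim probe sets it was 0.11.

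Kcnn3 encodes a small-conductance calcium-activated channel and had the largest higher difference of the 80 genes. Kcnn3 read 8.90, 8.50, 8.31, 8.39 and 8.18 on control arrays 1 to 5 and 9.32, 9.84, 8.91, 8.80 and 8.64 on KO-labelled arrays 1 to 5. KO-labelled arrays 1 and 2 were highest, and control array 1, highest of its group, lay within the KO-labelled range. The means were 8.45 ± 0.27 and 9.10 ± 0.48 (SD, n = 5 each), a difference of 0.65 ± 0.21 (SE; 95% interval 0.19 to 1.11) or 1.57-fold (limma, unadjusted p = 0.0100, adjusted p = 0.654). Kcnn1 differed by -0.01 ± 0.08 (SE). Kcnn4, the intermediate-conductance channel of microglia and other immune cells, read 6.25 ± 0.19 and 6.27 ± 0.26 (SD), a difference of 0.02 ± 0.13 (SE; limma adjusted p = 0.981).

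Inward rectifiers pass current more readily into the cell and hold the resting potential. After the 4 genes left out by the rule, 11 remained and all 11 lay above background, with means from 5.53 to 6.60. The mean was higher in KO-labelled arrays for 5 and lower for 6, with a median of -0.04. None of the 11 passed an unadjusted p under 0.05, where 4% of all genes read higher and 3.53% lower. Kcnj2, a strong rectifier found in microglia, was the brightest of them. Kcnj2 read 6.39, 6.54, 6.89, 6.68 and 6.94 in controls and 6.21, 6.39, 6.74, 6.65 and 6.54 in KO-labelled arrays, which overlapped, with a difference of -0.18 ± 0.13 (SE; limma adjusted p = 0.720). The G protein-gated subunits Kcnj3, Kcnj5, Kcnj6 and Kcnj9 and the pore of the ATP-sensitive channel, Kcnj11, lay in the same range of signal. Kcnj3 differed by 0.24 ± 0.13 and Kcnj11 by 0.13 ± 0.08 (SE). Kcnj3 stood at 6.51 on KO-labelled array 2, against 5.69 to 5.94 on the remaining arrays of both groups. The other rectifiers were Kcnj1, Kcnj4, Kcnj12, Kcnj14 and Kcnj15.

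Tandem-pore channels carry the background leak of potassium, and 13 of 13 Kcnk genes lay above background. Their mean was higher in KO-labelled arrays for 10 and lower for 3, with a median difference of 0.06. At an unadjusted p under 0.05, 1 of 13 (7.69%) read higher, against 4% of all genes, and 2 (15.4%) lower, against 3.53%. Those 2 were the 2 lowest differences among all 80 genes. Kcnk1 and Kcnk6, both of the TWIK group, had the brightest probe sets of the potassium channel genes.

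Kcnk6 encodes a TWIK channel that lets potassium out of macrophages upstream of the inflammasome. Kcnk6 read 9.23, 9.64, 10.15, 9.83 and 10.20 on control arrays 1 to 5 and 9.002, 8.41, 9.79, 9.62 and 9.18 on KO-labelled arrays 1 to 5. The groups overlapped, with control arrays 1 and 2 within the KO-labelled range and KO-labelled array 2 lowest. The means were 9.81 ± 0.40 and 9.20 ± 0.55 (SD, n = 5 each), a difference of -0.61 ± 0.25 (SE; 95% interval -1.16 to -0.06) or a ratio of 0.66 (limma, unadjusted p = 0.0336, adjusted p = 0.654).

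Kcnk12 encodes a THIK subunit that can join the product of Kcnk13. Kcnk12 read 6.29, 6.98, 7.08, 7.01 and 6.93 on control arrays 1 to 5 and 5.98, 5.89, 6.49, 6.72 and 6.22 on KO-labelled arrays 1 to 5. Control array 1 was apart from the other 4 controls and lay within the KO-labelled range, and without it the groups did not overlap, as for 7 of the 80 genes (8.75%) and 5.77% of all genes in that setting. The difference was -0.60 ± 0.18 (SE; 95% interval -0.998 to -0.20; limma, unadjusted p = 0.00695, adjusted p = 0.654), and without control array 1 it was -0.74 (limma adjusted p = 0.203). Kcnk13, the leak channel that keeps microglia ramified, read 6.60, 7.04, 7.28, 6.94 and 7.001 in controls and 6.65, 6.83, 7.21, 7.21 and 7.29 in KO-labelled arrays. Its difference was 0.06 ± 0.15 (SE; limma adjusted p = 0.930), with the lowest values on control array 1 and KO-labelled arrays 1 and 2.

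Kcnk1, with Kcnk2 a channel of the passive conductance of astrocytes, read 10.52, 9.71, 9.79, 10.25 and 9.68 on control arrays 1 to 5 and 11.11, 11.22, 10.03, 10.04 and 9.67 on KO-labelled arrays 1 to 5. KO-labelled arrays 1 and 2 stood above all others, KO-labelled arrays 3 and 4 lay within the control range, and KO-labelled array 5 lay at its lower edge. The difference was 0.42 ± 0.30 (SE; 95% interval -0.23 to 1.07; limma adjusted p = 0.712). Kcnk2 differed by 0.17 ± 0.19, and its relative Kcnk10 by 0.18 ± 0.08 (SE; limma, unadjusted p = 0.0530 for Kcnk10). The mechanosensitive Kcnk4 differed by 0.01 ± 0.10 (SE).

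Kcnk5, an alkaline-activated channel, was the 1 tandem-pore gene that read higher at an unadjusted p under 0.05. Kcnk5 read 6.05, 6.16, 5.94, 5.93 and 5.98 in controls and 6.33, 6.05, 6.24, 6.31 and 6.13 in KO-labelled arrays. KO-labelled arrays 2 and 5 lay within the control range, and the difference was 0.20 ± 0.08 (SE; 95% interval 0.02 to 0.39; limma, unadjusted p = 0.0325, adjusted p = 0.654). The other Kcnk genes, Kcnk7, Kcnk9, Kcnk15, Kcnk16 and Kcnk18, had differences between -0.10 and 0.09.

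Auxiliary subunits change the gating or delivery of the pore-forming proteins. Of 16, 14 lay above background: 3 of 3 Kcnab, 5 of 5 Kcne, 2 of 4 Kcnip and 4 of 4 Kcnmb genes. The mean was higher in KO-labelled arrays for 6 and lower for 8, with a median difference of -0.01. Of the 14, 1 (7.14%) read higher at an unadjusted p under 0.05, against 4% of all genes, and 0 lower, against 3.53%.

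Kcnip3, the calcium-binding KChIP also known as the transcriptional repressor DREAM, was the 1 auxiliary gene that read higher at an unadjusted p under 0.05. Kcnip3 read 8.13, 8.17, 8.32, 7.95 and 8.24 on control arrays 1 to 5 and 8.72, 9.21, 8.41, 8.29 and 8.48 on KO-labelled arrays 1 to 5. Only KO-labelled array 4 lay below the highest control, and KO-labelled array 2 was highest. The means were 8.16 ± 0.14 and 8.62 ± 0.36 (SD, n = 5 each), a difference of 0.46 ± 0.16 (SE; 95% interval 0.12 to 0.80) or 1.38-fold (limma, unadjusted p = 0.0114, adjusted p = 0.654).

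Kcne2, a single-span subunit abundant in choroid plexus epithelium, read 8.00, 7.13, 7.35, 7.71 and 7.55 on control arrays 1 to 5 and 7.09, 6.82, 7.82, 7.44 and 7.22 on KO-labelled arrays 1 to 5. The choroid plexus and ependyma marker means of the same arrays were 9.33, 8.87, 8.52, 9.11 and 8.93 in controls and 8.65, 8.15, 9.26, 8.88 and 8.64 in KO-labelled arrays. Control array 1 was highest for both in the control group, and KO-labelled array 3 was highest and array 2 lowest for both in the KO-labelled group. The difference in Kcne2 was -0.27 ± 0.19 (SE; limma adjusted p = 0.716), and the part of the choroid plexus in it was not tested. Kcne1 differed by -0.23 ± 0.13, Kcnmb1 by 0.22 ± 0.13, Kcnmb2 by -0.12 ± 0.09 and Kcnab2, the brightest of the Shaker beta subunits, by 0.07 ± 0.09 (SE for each). The remaining auxiliary genes, Kcnab1, Kcnab3, Kcne1l, Kcne3, Kcne4, Kcnip4, Kcnmb3 and Kcnmb4, differed by -0.08 to 0.12.

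The symbol rule also takes in 2 non-coding genes, both above background. Kcnq1ot1, the imprinted RNA antisense to Kcnq1, read 7.26 ± 0.12 in controls and 7.37 ± 0.06 in KO-labelled arrays (SD, n = 5 each), a difference of 0.12 ± 0.08 (SE; limma adjusted p = 0.707). Kcnd3os, opposite Kcnd3, differed by -0.12 ± 0.09 (SE; limma adjusted p = 0.734). Whether the values separate the strands of such pairs is not given in the sources used here.

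**Figure D3:**
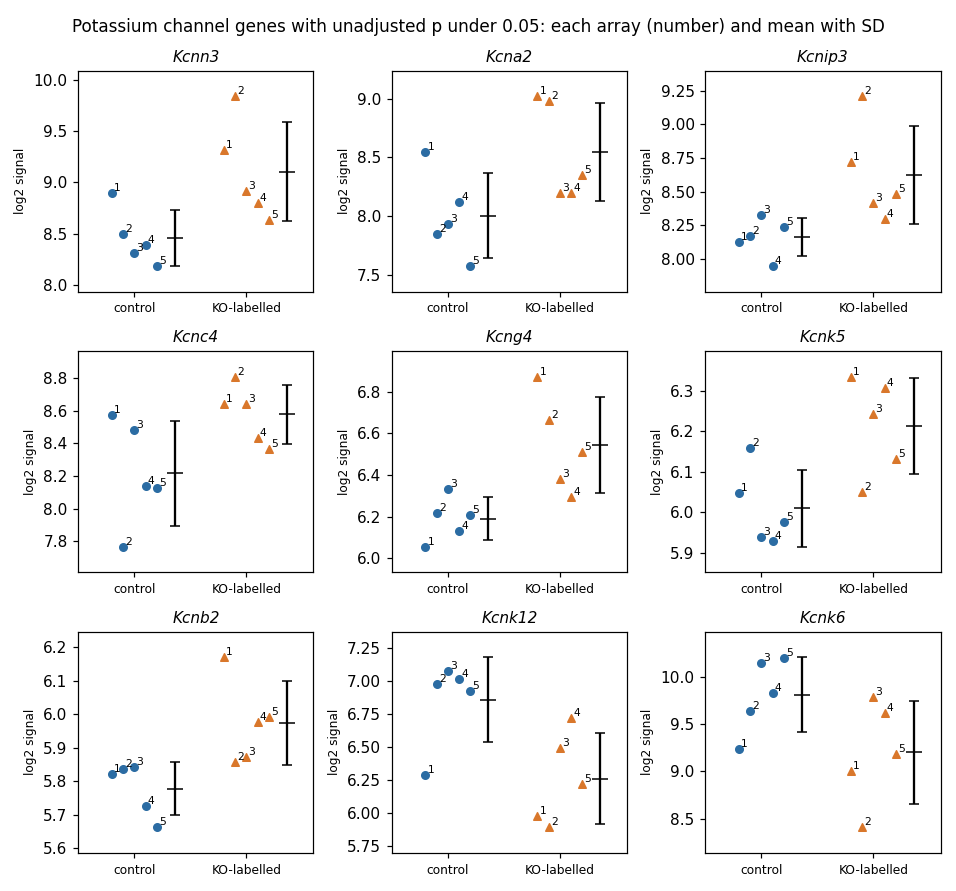
Log2 signal (vertical axes, scaled per gene) of the 9 genes with an unadjusted p under 0.05; circles are control arrays, triangles are KO-labelled arrays, numbers are array numbers, and bars give the mean and SD of 5 arrays. The groups overlap in every panel but that of Kcnb2, and control array 1 lies at the KO-labelled side of its group for Kcnn3, Kcna2, Kcnc4, Kcnk12 and Kcnk6.

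Microglia marker signal also differed among the arrays. The marker mean was lowest on KO-labelled array 2, KO-labelled array 1 and control array 1, which were also the arrays with the lowest Kcnk6 of their groups, and the astrocyte marker mean was highest on these 3 arrays. Kcnk1 and Kcna2 had their 3 highest values on these arrays and Kcnn3 its highest on KO-labelled arrays 1 and 2, while Kcnd1 and Kcnk13 had their 3 lowest values on them. Not every gene followed these arrays. Kcna3 read 6.65 on KO-labelled array 2, above every array but control array 3. Kcnn4 was lowest on KO-labelled array 2, at 5.85, and next lowest on control array 4, at 5.97. Kcng4, high on KO-labelled arrays 1 and 2, had its lowest value, 6.05, on control array 1. In a fit that takes the microglia marker mean as covariate, the Kcnk6 difference was -0.12 ± 0.13, that of Kcnk12 was -0.25 ± 0.11 and that of Kcnd1 was -0.06 ± 0.11 (SE). With the same covariate, Kcnn3 differed by 0.25 ± 0.12, Kcna2 by 0.16 ± 0.13, Kcnip3 by 0.24 ± 0.14, Kcng4 by 0.27 ± 0.12 and Kcnc4 by 0.20 ± 0.15, and Kcnk1 changed sign to -0.10 ± 0.19. Kcnb2 and Kcnk5 moved little, to 0.18 ± 0.10 and 0.23 ± 0.10. Kcnk13 went from 0.06 to 0.31 ± 0.12. At an unadjusted p under 0.05 in that fit, Kcng4, Kcnk13 and Kcnk5 read higher (3.75%, against 1.70% of all genes) and Kcnk12 read lower (1.25%, against 2.53%). The covariate is itself lower in the KO-labelled group, and the part of the cell mixture in these differences was not tested.

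Leaving out the 3 arrays, a step added after the data were seen, gave differences of 0.44 for Kcnn3, 0.38 for Kcna2, 0.23 for Kcnip3, 0.17 for Kcng4, 0.35 for Kcnc4, -0.52 for Kcnk12 and -0.42 for Kcnk6. Kcnk1 then differed by 0.05. At an unadjusted p under 0.05, 4 of 80 (5%) then read higher, Kcna2, Kcnc4, Kcnn3 and Kcnt1, against 3.34% of all genes. In the same setting 3 of 80 (3.75%) read lower, Kcnd1, Kcnk12 and Kcnk6, against 5.56% of all genes. The step did not even out the microglia marker means. They were 10.75 to 10.92 on the control arrays left and 10.31 to 10.60 on the KO-labelled arrays left, without overlap. Control arrays 2 and 3, those with high Xist, stayed in. The part of the cell mixture or of sex in these differences was not tested.

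**Figure D4:**
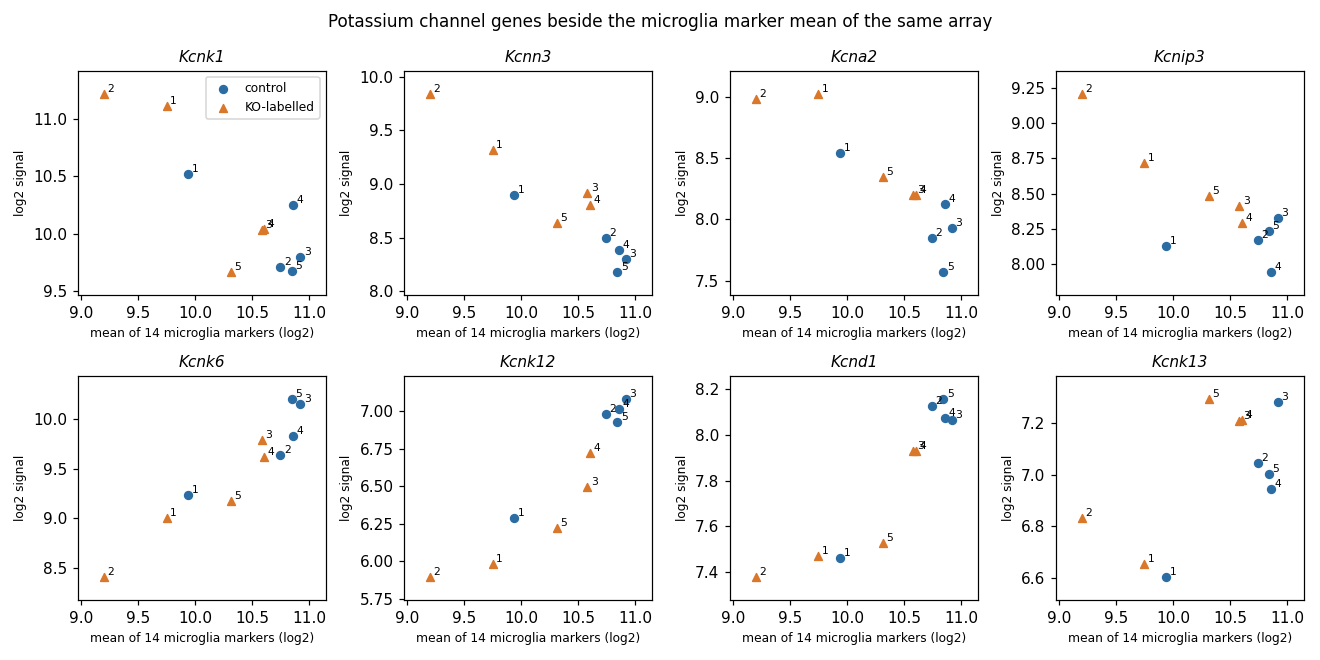
Log2 signal of 8 potassium channel genes (vertical axes) against the mean log2 signal of 14 microglia markers on the same array (horizontal axes); circles are control arrays, triangles are KO-labelled arrays and numbers are array numbers. KO-labelled arrays 1 and 2 and control array 1, with marker means of 9.75, 9.20 and 9.94, hold the highest values of Kcnk1 and Kcna2 and low values of Kcnk6, Kcnk12 and Kcnd1.

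Some potassium channels are known as partners or mRNA targets of FMRP, and 6 of them were tested here. FMRP binds the proteins of the sodium-activated channel Kcnt1, known as Slack, and of the large-conductance channel through its subunit Kcnmb4, and it binds the mRNAs of Kcnc1 and Kcnd2. None passed the test, and 4 had higher and 2 lower means in the KO-labelled arrays. Kcnt1 read 7.96, 7.19, 7.36, 6.92 and 7.65 on control arrays 1 to 5 and 8.07, 8.01, 7.60, 7.69 and 7.55 on KO-labelled arrays 1 to 5. The groups overlapped through control arrays 1 and 5, and the difference was 0.37 ± 0.18 (SE; 95% interval -0.03 to 0.77; limma adjusted p = 0.657).

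Kcnd2 read 7.76, 6.71, 7.18, 7.16 and 7.23 in controls and 7.77, 7.93, 7.38, 7.26 and 7.26 in KO-labelled arrays. Control array 1 matched the high KO-labelled arrays, and the difference of 0.31 ± 0.19 (SE; 95% interval -0.10 to 0.72; limma adjusted p = 0.682) was 0.19 without control array 2. Kcnma1, the large-conductance pore, read 7.94, 7.46, 7.88, 7.92 and 7.89 in controls and 8.19, 8.12, 7.95, 7.91 and 7.95 in KO-labelled arrays. Control array 2 stood apart from the other 4 controls, which lay between 7.88 and 7.94, and the difference of 0.21 ± 0.11 (SE; 95% interval -0.02 to 0.44; limma adjusted p = 0.663) was 0.12 without it. The second Kcnma1 probe set, at a mean of 5.57, differed by -0.05.

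Kcnn2, a small-conductance channel, read 9.01, 7.58, 8.50, 8.28 and 8.06 in controls and 9.11, 8.94, 8.39, 8.51 and 7.46 in KO-labelled arrays. Its wide spread in both groups left a difference of 0.20 ± 0.31 (SE; 95% interval -0.48 to 0.87; limma adjusted p = 0.894), which moved to 0.020 when control array 2 was left out and to 0.45 when KO-labelled array 5 was. Kcnc1 read 5.70 ± 0.19 and 5.66 ± 0.14 (SD, n = 5 each), with a difference of -0.04 ± 0.11 (SE; 95% interval -0.27 to 0.19; limma adjusted p = 0.941). Kcnmb4 read 5.91 ± 0.14 and 5.90 ± 0.09 (SD), with a difference of -0.02 ± 0.09 (SE; 95% interval -0.21 to 0.17; limma adjusted p = 0.972). In the fit with the microglia marker mean as covariate, Kcnt1 differed by 0.11 ± 0.16, Kcnd2 by 0.00062 ± 0.14 and Kcnma1 by 0.12 ± 0.12 (SE). With the same covariate, Kcnn2 differed by -0.19 ± 0.28, Kcnc1 by 0.07 ± 0.11 and Kcnmb4 by -0.03 ± 0.11 (SE). The part of the cell mixture in these 6 genes was not tested. Array signal says nothing of protein binding or translation.

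**Figure D5:**
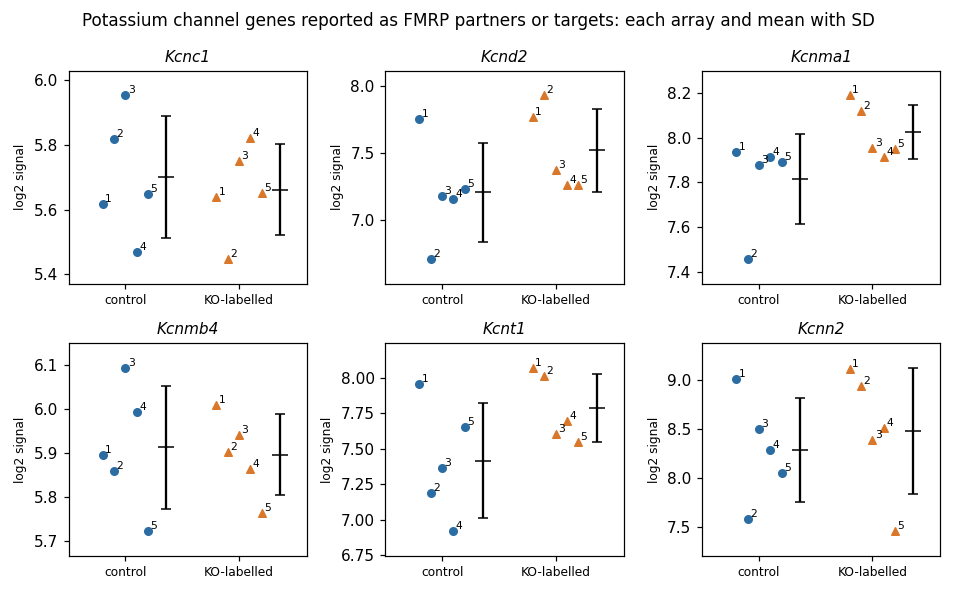
Log2 signal (vertical axes, scaled per gene) of the 6 tested genes whose mRNA or protein is reported to meet FMRP; circles are control arrays, triangles are KO-labelled arrays, numbers are array numbers, and bars give the mean and SD of 5 arrays. The groups overlap in all 6 panels, and control array 2 is the lowest control for Kcnd2, Kcnma1 and Kcnn2.

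Genes for proteins that accompany potassium channels, such as DPP and LGI proteins, scaffolds and calmodulin, with the related HCN cation channels, were read from a list of 26, of which 21 were measured and 18 tested. Means were higher for 9 and lower for 9, with a median difference of -0.01, and 0 passed after adjustment (limma). Of the 18, 1 read higher at an unadjusted p under 0.05, against 4% of all genes, and 0 lower, against 3.53%. The 1 was Adam22, the receptor of the secreted Lgi1 protein, with a difference of 0.29 ± 0.13 (SE; limma, unadjusted p = 0.0480). Lgi1 itself differed by 0.39 ± 0.25 and the Kcnb partner Vapa by -0.27 ± 0.15 (SE).

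Across the 10 arrays the potassium channel genes varied about as much as other genes. The highest and lowest array differed by more than 1 log2 unit for 13 of 80 (16.25%), against 15.05% of all genes tested, and the median range was 0.596 against 0.583. The widest ranges were those of Kcnk6 at 1.79, Kcnn3 at 1.66, Kcnn2 at 1.65, Kcnk1 at 1.55 and Kcna2 at 1.45. Control array 2 was the highest array for 24 of 80 (30%), against 18.1% of all genes, and it also had the highest median over all probe sets, 6.24. Where a gene had several probe sets, the others gave differences of -0.11 for Kcna4, -0.03 for Kcna6, 0.02 for Kcnab3, 0.03 for Kcnj3, -0.04 for Kcnmb4 and -0.01 for Kcnq5, against 0.06, 0.00, 0.06, 0.24, -0.02 and -0.05 from the brightest.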

How the data were processed

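RNA was measured on 10 Affymetrix arrays, 5 control and 5 labelled Fmr1 KO. Per the labels' protocols, EGFP-positive cells were sorted, and cDNA was amplified, fragmented and biotinylated with whole-transcript kits. The series' design text names GeneSpring 13.1.1 for the authors' comparison of the groups. The values the authors deposited are log2 signals per probe set, a scale read from the values (4.31 to 13.9). How background was corrected and arrays were normalized is not given in the sources used here, and both could change every difference. The titles call the replicates biological. Whether they are separate animals or pools is not stated: p-values cover only the spread among the 10 samples, which may be technical, and the number of arrays limits the precision.

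Of 33793 probe sets, 23521 had 1 symbol in the platform annotation, 1814 had several and 8458 had none listed. The first set gave 22180 genes, by the brightest probe set of each, and all 87 potassium channel symbols were found in a RefSeq table of assembly GRCm38.p6. In addition, 4 potassium channel probe sets with several symbols were left out. Genes whose mean lay under the 25th percentile of probe sets were not tested, which left 17712. Differences were tested two-sided in limma 3.58.1 (lmFit, eBayes; R 4.3.3), with Benjamini-Hochberg adjustment over all 17712 and a threshold of 0.05. The script was tested on simulated data.

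The genes, lists, design and most alternatives were chosen with earlier results of these data known. Genes were named if reported to meet FMRP, if known for glia, if among the 6 smallest unadjusted p in each direction, if brightest in a subfamily, if next to the background level, or if their groups did not overlap. Alternatives were quantile normalization, equal array medians, other filters, averaging the probe sets of a gene, trended and robust eBayes, array weights, a block for replicate number, microglia marker mean as covariate, and leaving out arrays. Protein sequences were not analysed here.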

Additional observations from a re-analysis of the deposited data

Results flagged for a closer look

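In 76 groups of 5 arrays examined for the named genes, 4 had 1 array set apart from the other 4 by a gap above 0.71 of the group's range. Chance flags about 1 in 20 groups. Control array 1 stood low for Kcnk12, at 6.29 where the remaining controls spanned 6.93 to 7.08, and for Kcnd1, at 7.46 where they spanned 8.07 to 8.16. Control array 2 stood low for Kcnma1, at 7.46 where the remaining controls spanned 7.88 to 7.94. It stood high for Kcnip1, whose mean is below background, at 5.34 where they spanned 5.20 to 5.24.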

How the results depend on the processing

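No potassium channel gene passed after adjustment under any of 23 alternative settings, and the smallest adjusted p of a named gene was 0.203 (limma, Kcnk12 without control array 1). Of 37 named genes tested, 18 kept the sign of their difference under every setting run. Among all genes, 1 passed without control array 1 and KO-labelled arrays 1 and 2, a setting chosen after seeing the data, and leaving out single arrays gave 0 to 1, the 1 without control array 5.

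The number of potassium channel genes higher at an unadjusted p under 0.05, 7 of 80, was 3 with the microglia covariate, 4 without those 3 arrays, and 3 to 10 when single arrays were left out. Of all genes, 709 were higher, 301 with the covariate, 592 without the 3 arrays, and 343 to 1171 when single arrays were left out. The number lower, 2, was 1 with array weights, without control arrays 2 and 3 or with the microglia covariate, 0 with that covariate and without control arrays 2 and 3, and 1 to 4 when single arrays were left out. Of all genes, 625 were lower, 753 with array weights, 433 without control arrays 2 and 3, 448 with the covariate, 492 with both, and 414 to 1256 when single arrays were left out. Groups that did not overlap, 1 gene (Kcnb2), numbered 2 after quantile normalization or with equal medians, 0 with the filter at the median, 8 without control arrays 2 and 3, 8 without control array 1 and KO-labelled arrays 1 and 2, and 1 to 7 when single arrays were left out, where smaller groups overlap less by construction. The share of all genes, 0.965%, was 1.13% after quantile normalization, 0.796% with equal medians and 1.04% with the filter at the median. It was 3.66% without control arrays 2 and 3 and 9.27% without those 3 arrays. When single arrays were left out it was 1.40% to 5.77%, the highest without control array 1, where the potassium channel genes numbered 7. The filter at the median left 40 genes above the level. Median differences by role also moved. For voltage-gated genes, -0.04 became 0.03 with that filter and 0.025 without control arrays 2 and 3. For inward rectifiers, -0.04 became 0.07 without control arrays 2 and 3. For auxiliary genes, -0.01 became 0.14 with that filter and 0.06 without control arrays 2 and 3. For tandem-pore and calcium- or sodium-activated genes the median stayed positive in every setting.

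Signs that changed were as follows; the cause was not tested. With array weights, Kcnc1 differed by 0.041, Kcnf1 by 0.00487, Kcnh2 by 0.084, Kcnh8 by 0.033 and Kcnq3 by -0.024. Without control arrays 2 and 3, Kcnc1 differed by 0.084, Kcnh8 by 0.085, Kcnmb4 by 0.026 and Kcnv1 by 0.023. With the microglia covariate, Kcnc1 differed by 0.069, Kcng1 by -0.0098, Kcnj2 by 0.0072, Kcnk1 by -0.10, Kcnk2 by -0.10, Kcnn2 by -0.19 and Kcnq3 by -0.050. With it and without control arrays 2 and 3, Kcnc1 differed by 0.15, Kcnd2 by -0.10, Kcng1 by -0.00307, Kcnh8 by 0.068, Kcnk1 by -0.15, Kcnk2 by -0.062, Kcnmb1 by -0.030, Kcnmb4 by 0.00562, Kcnn2 by -0.28, Kcnq3 by -0.060 and Kcnv1 by 0.11. Without control array 1 and KO-labelled arrays 1 and 2, Kcnab2 differed by -0.018, Kcnc1 by 0.018, Kcne2 by 0.055, Kcnh2 by 0.057, Kcnh8 by 0.049 and Kcnq3 by -0.085.

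Leaving out single arrays gave -0.098 to 0.024 for Kcnc1, -0.039 to 0.10 for Kcng1, -0.11 to 0.018 for Kcnh2, -0.069 to 0.057 for Kcnh8, -0.028 to 0.16 for Kcnk13, -0.065 to 0.029 for Kcnmb4, -0.052 to 0.12 for Kcnn4 and -0.054 to 0.079 for Kcns3.

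The arrays share replicate numbers. Deviations of same-numbered arrays from their group means correlated at 0.525, -0.0153, 0.191, 0.00200 and 0.150, and 0 of 5 control arrays correlated best with their own number, so not every pair was above 0.1 and the numbers were not taken to pair the samples, though 3 of the 5 correlations were. With the replicate number as a block, 0 genes passed, 7 potassium channel genes were higher and 3 lower at an unadjusted p under 0.05 (1006 and 1074 of all genes), with Kcnb2 and Kcnk5 lost and Kcnmb1, Kcnt1 and Kcnd1 gained, and their smallest adjusted p was 0.320 (limma).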
